A study of Drosophila melanogaster with 3 samples.

Results

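The genes described here are those of oxidative phosphorylation in Drosophila larval brain cells. They were taken by symbol, as every feature whose name begins with ND-, COX, UQCR-, ATPsyn or mt:, which gave 92 of 13988 features. Of these, 79 are nuclear genes and 13 are genes of the mitochondrial DNA. The nuclear members comprise 40 of complex I (ND-), 9 of complex III (UQCR-), 15 of complex IV (COX) and 15 of complex V (ATPsyn). The mitochondrial members comprise 7 of complex I, 1 of complex III, 3 of complex IV and 2 of complex V.

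The study sorted type 1 neuroblast lineages from dissected larval brains and profiled single cells with the 10x Genomics GEM-X 3′ kit, with 1 library for each of 3 genotypes. Every library carried Sqh::GFP (GFP on the regulatory light chain of myosin), together with worGal4, a driver active in neuroblasts, and UAS-mCherry::Jupiter (mCherry on a protein that binds microtubules). The library labelled mud also carried the allele mud4 on the X chromosome. The nanobody library also carried UAS-ALDInscuteable RockKinase domain-VhhGFP4-HA, a fusion with the Rock kinase domain and a GFP nanobody, made only where worGal4 is active. The control library had no further change. All larvae were 72 to 96 h after egg laying, all libraries are of batch 1, and the sources used here do not give the number of brains per library.

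Oxidative phosphorylation is the route by which mitochondria make most of a cell's ATP from oxygen. Complexes I, III and IV of the inner membrane pass electrons on to oxygen and pump protons outward, and complex V, the ATP synthase, uses the returning protons to make ATP. Complexes I, III, IV and V are each built from subunits of both genomes, so that nuclear and mitochondrial transcripts have to meet in the same assembly. Fly neuroblasts are dividing stem cells that bud off ganglion mother cells, whose daughters become neurons, and they are known to rely on oxidative phosphorylation for proliferation and for their temporal progression.

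A called cell had at least 1000 unique molecular identifiers (UMIs, each standing for 1 captured transcript), at least 500 detected genes and at most 20% mitochondrial UMIs. This left 15194 cells in the library labelled mud, 14415 in the nanobody library and 14852 in control, with medians of 6176, 6863 and 6528.5 UMIs per cell in that order. The limit on mitochondrial UMIs removed 1, 3 and 1 barcodes. The libraries shared 59 to 78 cell barcodes pairwise. Levels are given as CPM, counts scaled to the usual common total per library or gate. Transcript of mud was not lower in the library that names it, at 139 CPM (exact 95% Poisson interval 137 to 141) in the library labelled mud, 110 (109 to 112) in the nanobody library and 112 (110 to 114) in control. The transcript level therefore gives no check of that label.

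Cells were gated on UMIs of 5 genes that mark the stages. The gates were dpn of at least 1 (neuroblasts), ase of at least 2 with dpn at 0, Hey of at least 3 (newborn neurons), nSyb of 1 to 9, nSyb of at least 10 (neurons with most synaptobrevin transcript) and repo of at least 2 (glia). In the dpn gate 6 neuroblast markers summed to 3006, 3020 and 3230 CPM in the library labelled mud, the nanobody library and control. In the nSyb ≥10 gate they summed to 88.8, 62.5 and 61.6 CPM. These markers include dpn itself, so the sum in the dpn gate was in part set by the gate. The ase gate was set up for ganglion mother cells, but the sum of the 3 markers listed for them (ase, pros and tap) went against that name. The 3 markers summed to 1818, 1854 and 1815 CPM in the ase gate of the library labelled mud, the nanobody library and control. At nSyb 1 to 9 they summed to 9779, 15380 and 14170 CPM. The sum does not show which of them was higher there, and ase itself defines the ase gate. That gate is therefore called by its gene. The 2 newborn neuron markers, Hey and nerfin-1, summed to 1895, 1965 and 2216 CPM in the Hey gate of those libraries. In the ase gate they summed to 1305, 1357 and 1800 CPM, and Hey itself defines the Hey gate. In the repo gate 5 glial markers summed to 3620, 2911 and 2581 CPM in those libraries, a sum that likewise includes repo itself. The labels call the sorted cells neuroblasts and neurons, so that the repo gate holds cells outside that name, and it was small, with 107, 59 and 89 cells. A cell could fall into several gates, as 1053, 896 and 882 cells did. Of these, 443, 463 and 487 were in both the ase and the Hey gate.

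Of the 79 nuclear members, 56 had at least 1000 UMIs over the 3 libraries, from 15041 for ND-23 to 483546 for ATPsynC. The other 23 had few or none, and 21 of these 23 bear names with a final L, in some followed by a digit, as given to second copies of subunit genes. ND-20L, ND-24L, UQCR-14L, UQCR-6.4L and ATPsynGL had 0 UMIs, and the best detected of the copies, ND-51L1, had 416. The remaining low members were ND-B8, with 58 UMIs, and ND-MNLL, which is no such copy, with 601, whose 720 exon bases all overlap CG45089 on the same strand, so that its reads may have been lost to the overlap. The tests below covered 59 nuclear members and all 13 mitochondrial ones, out of 8027 genes tested.

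The nuclear share of a cell's UMIs was lower at each step from the dpn gate to nSyb 1 to 9 and higher again in the nSyb-high neurons. For the library labelled mud the median cell had 1.31% nuclear oxidative phosphorylation UMIs in the dpn gate, 1.18% in the ase gate, 1.07% in the Hey gate, 0.964% at nSyb 1 to 9 and 1.20% at nSyb ≥10. In the nanobody library the same medians were 1.36%, 1.34%, 1.22%, 1.11% and 1.21%. In control they were 1.47%, 1.41%, 1.29%, 1.13% and 1.37%. All 3 libraries thus had the lowest median at nSyb 1 to 9. The median depth there was 7143, 8218.5 and 7457.5 UMIs in the library labelled mud, the nanobody library and control. At nSyb ≥10 it was 12296, 13037 and 11289 UMIs. Among cells of 8000 to 16000 UMIs the rise was from 1.02% to 1.16%, from 1.17% to 1.18% and from 1.19% to 1.36% in those libraries. Above 16000 UMIs it was from 1.18% to 1.21%, from 1.27% to 1.28% and from 1.30% to 1.46%. The order of the earlier gates depended on depth in the nanobody library and in control. Nanobody cells of 4000 to 8000 UMIs had medians of 1.15% in the dpn gate, 1.24% in the ase gate and 1.20% in the Hey gate. At 8000 to 16000 UMIs they had 1.36% in the dpn gate and 1.40% in the ase gate. Control cells under 4000 UMIs had 1.26% and 1.28% in these gates. In the library labelled mud the dpn median was above the ase median in each depth range.

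Over the 3 libraries the nuclear medians averaged 1.38 ± 0.08% in the dpn gate, 1.31 ± 0.12% in the ase gate, 1.19 ± 0.12% in the Hey gate, 1.07 ± 0.09% at nSyb 1 to 9 and 1.26 ± 0.10% at nSyb ≥10 (SD, n = 3). Neighbouring gates overlapped in the libraries' values from dpn to nSyb 1 to 9, whereas both nSyb gates did not overlap. Glia had the highest mean, 1.48 ± 0.14%, with 1.36% in the library labelled mud, 1.63% in the nanobody library and 1.46% in control. This rank depended on depth. Among cells of 4000 to 8000 UMIs the glial medians were 1.15% in the library labelled mud and 1.19% in control, below 1.21% and 1.39% in their dpn cells. The nanobody library had too few such glia. At 8000 to 16000 UMIs the glial medians lay above the dpn medians in all 3 libraries. With 3 libraries a sign-flip test within libraries cannot give a p below 0.25, so no p is given for shares.

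Mitochondrial transcripts followed another course, with a drop between the Hey and nSyb gates and no return. The medians over dpn, ase, Hey, nSyb 1 to 9 and nSyb ≥10 were 1.30%, 1.25%, 1.20%, 0.934% and 0.929% in the library labelled mud. They were 1.44%, 1.55%, 1.54%, 1.07% and 1.01% in the nanobody library. They were 1.28%, 1.25%, 1.14%, 0.778% and 0.788% in control. Within each library both nSyb gates lay below all 3 earlier gates.

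**Figure D1:**
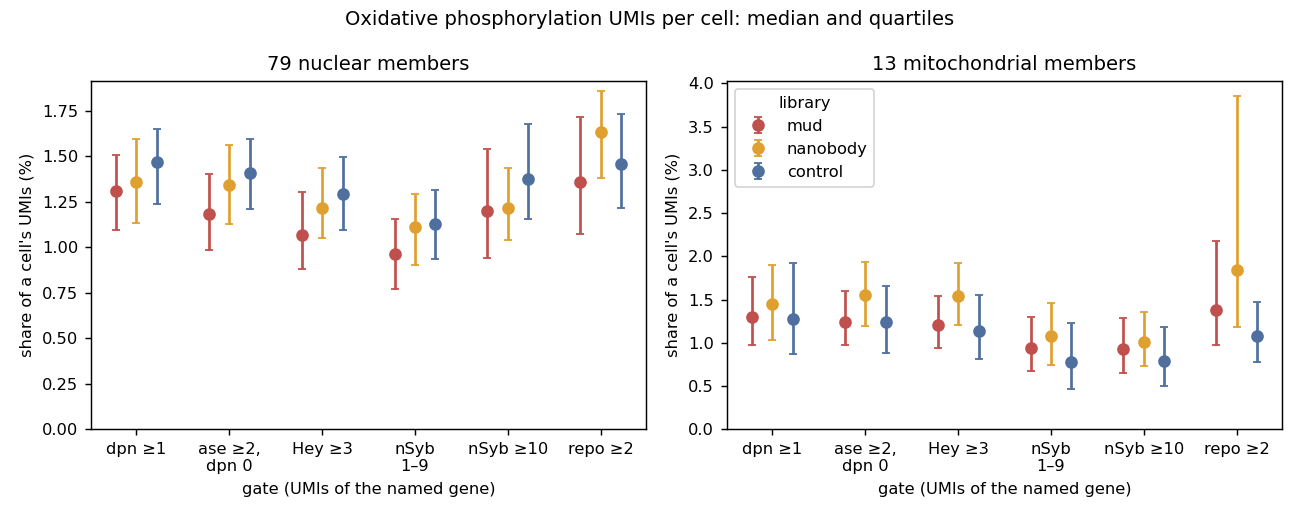
Share of each cell's UMIs on the 79 nuclear members (left) and the 13 mitochondrial members (right), in percent, by gate. Points are medians over cells and bars run from the lower to the upper quartile, for the library labelled mud, the nanobody library and control. The nuclear medians dip at nSyb 1 to 9, at 0.964%, 1.11% and 1.13%, while the mitochondrial medians stay low at nSyb ≥10.

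The nSyb ≥10 median over the dpn median, as a log2 ratio within each library, was −0.13 in the library labelled mud, −0.16 in the nanobody library and −0.10 in control for the nuclear share, a mean of −0.13 ± 0.03. For the mitochondrial share it was −0.49, −0.51 and −0.70, a mean of −0.56 ± 0.12. The mitochondrial share was thus lower by more than the nuclear one in all 3 libraries. The pooled nuclear to mitochondrial UMI ratio averaged 1.38 ± 0.23 at nSyb ≥10 and 0.979 ± 0.070 in the dpn gate.

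Depth and ribosomal protein transcripts moved with these shares. Ribosomal protein genes made up a median of 14.3 ± 0.9% of UMIs at nSyb ≥10 and 21.4 ± 1.6% in the dpn gate, and with their UMIs left out of the total the nuclear log2 ratio was −0.23. In dpn-positive cells the nuclear median was higher at greater depth, 1.44% above 16000 UMIs and 1.16% under 4000 UMIs for the library labelled mud, 1.59% and 1.21% for nanobody, and 1.54% and 1.26% for control. Among cells of 4000 to 10000 UMIs the nuclear log2 ratio was 0.00062, the mean share being 1.27% in both gates, whereas the mitochondrial ratio was −0.60. Within a gate and library the Pearson correlation of both shares over cells ran from −0.00 to 0.25, which describes cells that share a library and a depth range and is no finding.

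Single genes were tested between gates with edgeR's quasi-likelihood test on UMI sums of cells in exactly 1 gate, with library as a term. Adjusted p-values are Benjamini-Hochberg values over all 8027 genes. With library as a term, they rest on how gate differences vary between 3 libraries of different genotype. That spread was estimated per gene from all 6 gates together. Log2 fold changes from this fit are after TMM scaling, which holds most genes near 0. The CPM given beside them are of all cells of a gate, those in several gates included. In the Hey gate of the library labelled mud the CPM rest on 10597087 UMIs and the fit on 4728454. For both reasons the fold changes can differ from ratios of CPM. In nSyb ≥10 cells over dpn cells, 17 of 59 nuclear members rose and 12 fell, while none of 13 mitochondrial members rose and 9 fell. Of all genes, 40.4% rose and 39.9% fell, so the called share of nuclear members was below that of all genes in each direction, and the share of mitochondrial members that fell was above it. The median log2 fold change was 0.07 for nuclear members, −0.34 for mitochondrial members and 0.01 for all genes.

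These counts depended on the scaling. Scaled by library size alone, all genes had a median of −0.21 and the nuclear members a median of −0.16, with 3 higher and 29 lower. With DESeq2's size factors the medians were 0.17 and 0.22, with 32 higher and 6 lower. Under these scalings the nuclear median thus lay near that of all genes. Among cells of 4000 to 10000 UMIs it was 0.36, against 0.02 for all genes, with 32 higher and 1 lower. Of the members called, 16 of the 17 higher and 8 of the 12 lower kept their sign in all 14 fits made.

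Among those that rose, COX6B, a subunit of cytochrome c oxidase at the dimer interface, had 620, 692 and 779 CPM in nSyb ≥10 cells of the library labelled mud, the nanobody library and control, against 532, 581 and 610 CPM in their dpn cells. It was higher in nSyb-high cells in every library, and its log2 fold change was 0.51 ± 0.09 (SE; edgeR adjusted p = 4.83e-05). ATPsynE, a membrane subunit of the ATP synthase, had 410, 407 and 450 CPM in nSyb ≥10 cells and 374, 352 and 375 CPM in dpn cells (log2 fold change 0.45 ± 0.11, edgeR adjusted p = 0.00139). ATPsynbeta, the catalytic subunit, had 573, 614 and 723 CPM in nSyb ≥10 cells and 520, 579 and 630 CPM in dpn cells (log2 fold change 0.37 ± 0.05, edgeR adjusted p = 1.38e-05). These were the 3 nuclear members called higher in all 14 fits.

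ND-SGDH, an accessory subunit of the membrane arm of complex I, was the member called lower in all 14 fits. It had 107, 97.5 and 119 CPM in nSyb ≥10 cells of the library labelled mud, the nanobody library and control, against 180, 179 and 195 CPM in dpn cells. The gates did not overlap, and the log2 fold change was −0.64 ± 0.09 (edgeR adjusted p = 8.98e-06). ND-30, a core subunit of complex I, had 78.5, 69.5 and 90.4 CPM in nSyb ≥10 cells, against 135, 134 and 134 CPM in dpn cells (log2 fold change −0.61 ± 0.10, edgeR adjusted p = 2.52e-05). UQCR-6.4, the smallest subunit of complex III, had 187, 107 and 110 CPM in nSyb ≥10 cells, against 298, 226 and 155 CPM in dpn cells. Its levels differed between libraries as much as between gates, and its log2 fold change was −0.60 ± 0.11 (edgeR adjusted p = 0.000123). Among cells of 4000 to 10000 UMIs neither ND-30 (edgeR adjusted p = 0.206) nor UQCR-6.4 (edgeR adjusted p = 0.101) passed.

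Core subunits of complex I thus did not move as one. ND-75, ND-51 and ND-49 rose, by 0.25 ± 0.08, 0.34 ± 0.09 and 0.26 ± 0.08 on the log2 scale, and ND-30, ND-20 and ND-23 fell, by 0.61 ± 0.10, 0.36 ± 0.07 and 0.31 ± 0.13. ND-24 did not pass, at 0.11 ± 0.08. ND-23 was called in 4 of the other 13 fits, and the log2 fold changes of ND-75 and ND-49 were as low as 0.03 in 1 fit. By CPM the difference was small and not of 1 direction for ND-49. It had 110, 113 and 134 CPM in nSyb ≥10 cells of the library labelled mud, the nanobody library and control, against 104, 116 and 123 CPM in dpn cells. The nanobody library was thus lower at nSyb ≥10. The split into core subunits that rose and fell was noticed after their values were seen.

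By complex, 7 of 34 tested nuclear subunits of complex I rose and 8 fell, 1 of 6 rose and 2 fell in complex III, 3 of 7 rose and 1 fell in complex IV, and 6 of 12 rose and 1 fell in complex V, where 40.4% of all genes rose and 39.9% fell. Besides ATPsynE and ATPsynbeta, complex V's risers were ATPsyngamma, ATPsynC, ATPsynB and ATPsynCF6, with log2 fold changes of 0.20 to 0.28, of which ATPsynCF6 changed sign in some fits. The faller was ATPsynepsilonL, a copy with 260 UMIs in all. Complex I took 27.3 ± 0.7% of nuclear oxidative phosphorylation UMIs at nSyb ≥10 and 30.4 ± 0.4% in the dpn gate, with no overlap between the libraries' values of the gates. Complex V took 42.2 ± 0.9% and 39.3 ± 0.9%, also without overlap (SD, n = 3).

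**Figure D2:**
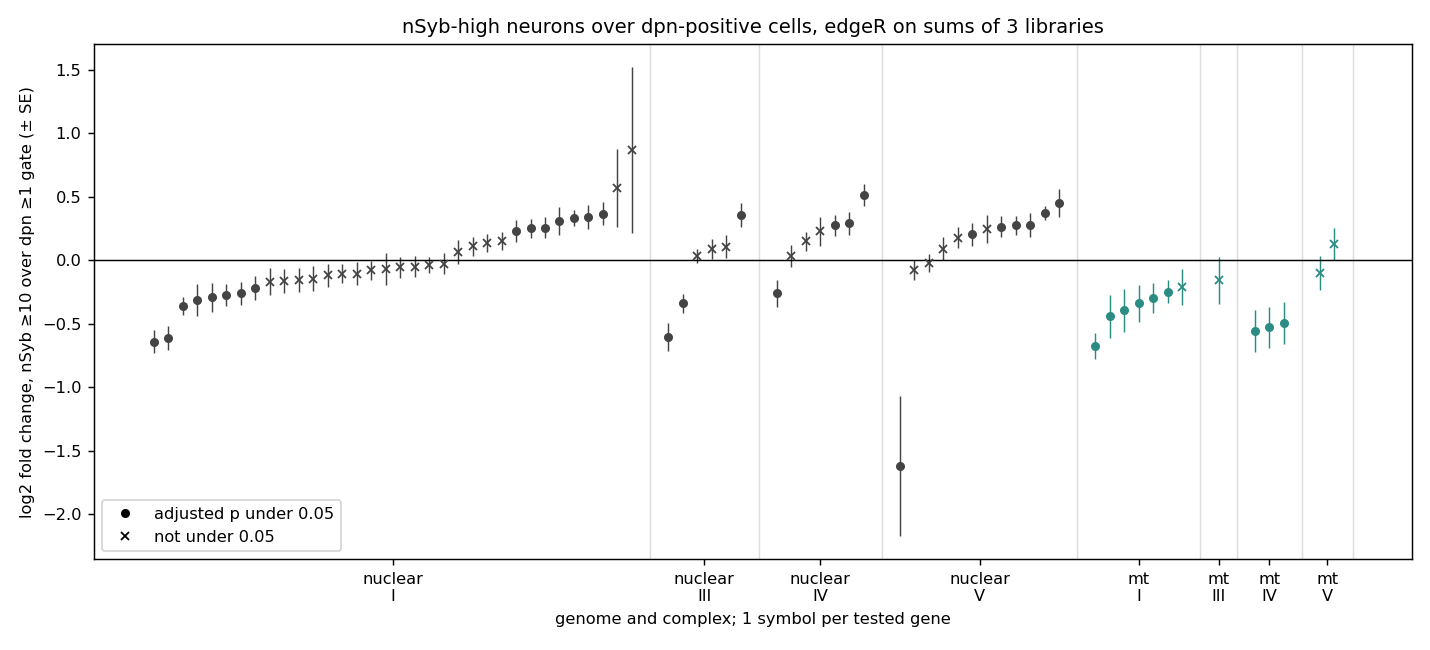
Log2 fold change with its SE, nSyb ≥10 over dpn gate, for the 59 tested nuclear (grey) and 13 mitochondrial (green) members, sorted within each complex. Circles passed an edgeR adjusted p of 0.05 and crosses did not. The 9 mitochondrial circles all lie below 0, while nuclear circles lie on both sides.

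On the mitochondrial side, mt:ND3, a complex I subunit, had 114, 95.7 and 84.4 CPM in nSyb ≥10 cells of the library labelled mud, the nanobody library and control, against 193, 164 and 161 CPM in dpn cells. Every nSyb-high value lay below every dpn value, with a log2 fold change of −0.67 ± 0.10 (edgeR adjusted p = 1.91e-05), and mt:ND3 was the mitochondrial member called in all 14 fits. mt:CoI, the catalytic subunit of cytochrome c oxidase, had 2404, 2624 and 2051 CPM in nSyb ≥10 cells, against 3618, 4298 and 3418 CPM in dpn cells (log2 fold change −0.53 ± 0.16, edgeR adjusted p = 0.00746). The other members that fell were mt:CoII, mt:CoIII, mt:ND1, mt:ND2, mt:ND4, mt:ND4L and mt:ND5, by 0.25 to 0.56 on the log2 scale, and mt:ND2 and mt:ND4L changed sign in some fits. Those that did not pass were mt:ATPase6 at 0.13, mt:ATPase8 at −0.10, mt:Cyt-b at −0.16 and mt:ND6 at −0.21. Without the nanobody library 1 mitochondrial member was called lower, and without the library labelled mud 4 were.

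Most nuclear members were lower in the Hey gate than in the dpn gate. In Hey cells over dpn cells, 1 of 59 nuclear members rose and 40 fell, against 30.9% and 31.1% of all genes, and 2 of 13 mitochondrial members fell. The nuclear median log2 fold change was −0.34, against 0.01 for all genes, and ranged from −0.37 to −0.31 with library size and DESeq2 scaling. Among cells of 4000 to 10000 UMIs 15 fell, with a median of −0.12. In the library labelled mud 5 hemocyte markers summed to 34.0 CPM in the Hey gate, against 0.786 in the nanobody library and 1.31 in control, and their part in the result was not tested.

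ND-30 had 64.9, 67.0 and 62.2 CPM in Hey cells of the library labelled mud, the nanobody library and control, against 135, 134 and 134 CPM in dpn cells, a log2 fold change of −1.20 ± 0.10 (edgeR adjusted p = 5.71e-08). ND-15, an accessory subunit of complex I, had 109, 104 and 96.7 CPM in Hey cells, against 208, 192 and 182 CPM in dpn cells (log2 fold change −1.05 ± 0.09, edgeR adjusted p = 7.87e-08). Both were close to alike across libraries and far apart between gates. ND-B17, an accessory subunit of the membrane arm, had 51.0, 59.0 and 64.0 CPM in Hey cells, against 88.9, 96.6 and 123 CPM in dpn cells (log2 fold change −0.92 ± 0.09, edgeR adjusted p = 3.32e-07). ND-23 had 36.8, 41.6 and 44.7 CPM in Hey cells, against 63.7, 72.5 and 72.2 CPM in dpn cells (log2 fold change −0.88 ± 0.14, edgeR adjusted p = 4.31e-05). These 4 were among 14 nuclear members called lower in all 14 fits, with ND-B14.5A, ND-B17.2, ND-MWFE, ND-SGDH, ND-49, ND-B14 and ND-B16.6 of complex I, UQCR-Q of complex III, COX5B of complex IV and ATPsynC of complex V.

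The member that rose was ATPsyngamma, the central stalk of the synthase. It had 287, 314 and 411 CPM in Hey cells of the library labelled mud, the nanobody library and control, against 281, 281 and 322 CPM in dpn cells (log2 fold change 0.23 ± 0.08, edgeR adjusted p = 0.0289). Without the nanobody library, and without control, it did not pass. The lowest value belonged to ATPsynepsilonL, at −2.70 ± 0.71, with 1.13, 0.0983 and 0.373 CPM in Hey cells and 1.55, 1.93 and 2.91 CPM in dpn cells. At so few UMIs the library labelled mud had by CPM nearly as much in one gate as in the other. These CPM include cells in several gates, which the fitted value leaves out. Of the mitochondrial members, mt:ND1 and mt:ND2 fell, by 0.30 and 0.34 on the log2 scale (edgeR adjusted p = 0.0118 and 0.0197).

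Cells of the ase gate stood between the dpn and Hey gates for some of these genes. In ase cells over dpn cells, 2 of 59 nuclear members rose and 11 fell, against 25.4% and 24.8% of all genes, and 1 of 13 mitochondrial members, mt:ND2, fell. ND-15 had 126, 126 and 108 CPM in ase cells of the library labelled mud, the nanobody library and control (log2 fold change over dpn −0.60 ± 0.09, edgeR adjusted p = 4.07e-05). ND-30 had 78.1, 91.4 and 81.3 CPM in ase cells (log2 fold change −0.57 ± 0.09, edgeR adjusted p = 0.000134). Both lay below every dpn value, and in each library above its own Hey value, and were called lower in all 14 fits. ND-B17 fell by 0.49 ± 0.08, ND-19 by 0.35 ± 0.07 and ATPsynE by 0.31 ± 0.11 on the log2 scale. The risers were ATPsyngamma, at 0.33 ± 0.08, and ATPsynCF6, a stator subunit, at 0.23 ± 0.09. The counts moved with the setting, from 1 higher and 25 lower by library size alone to 12 higher and 2 lower at 4000 to 10000 UMIs, and fewer fell when any library was left out, 3 to 5.

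ND-15 was low in the middle of the series and high at both ends. From Hey to nSyb 1 to 9 to nSyb ≥10 it had 109, 165 and 185 CPM for the library labelled mud, 104, 182 and 205 CPM for nanobody and 96.7, 167 and 190 CPM for control. ND-30 instead was lowest at nSyb 1 to 9, with 53.7, 52.0 and 51.8 CPM in the library labelled mud, the nanobody library and control. At nSyb ≥10 it had 78.5, 69.5 and 90.4 CPM, above its Hey values and below its dpn values.

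**Figure D3:**
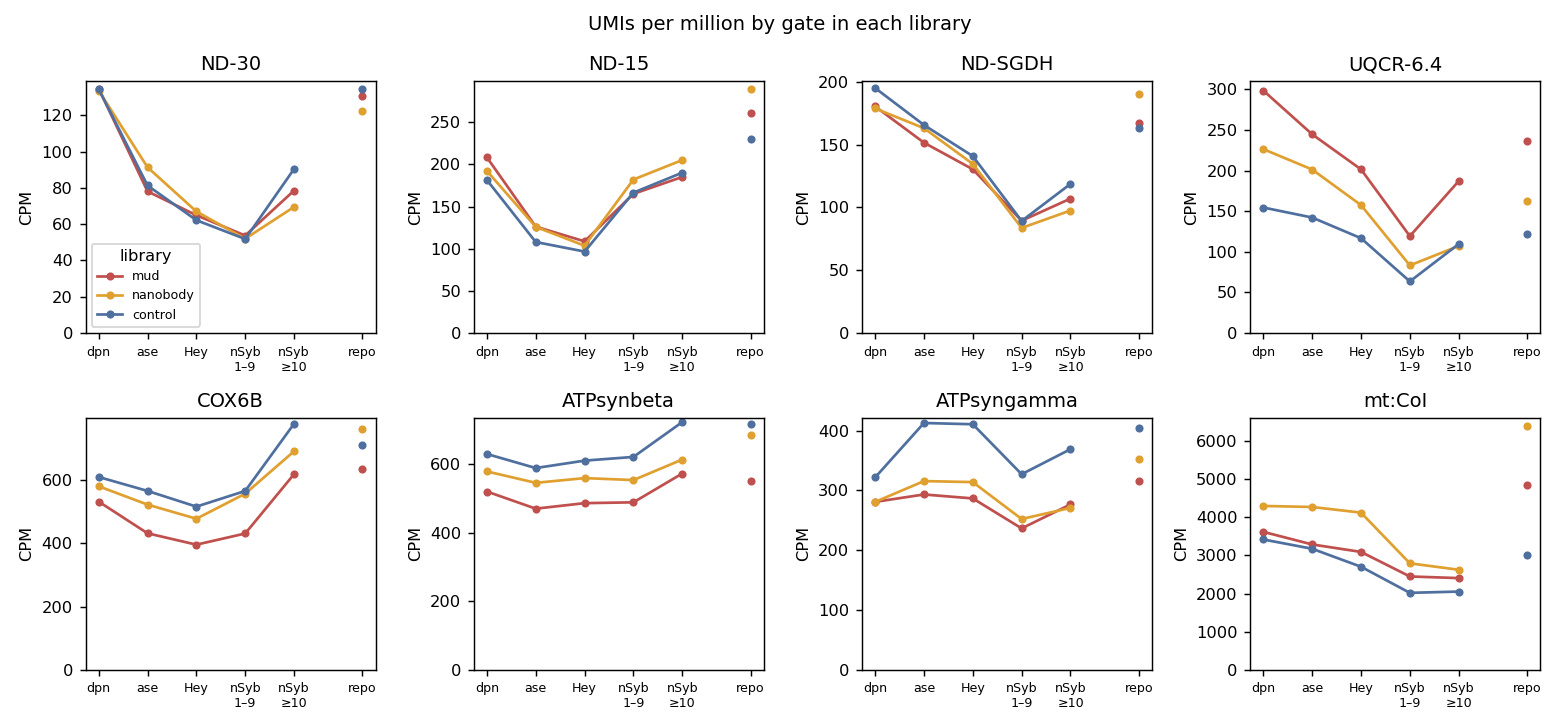
Level (CPM) of 8 members in each gate, for the library labelled mud, the nanobody library and control. Points joined by lines follow dpn, ase, Hey, nSyb 1 to 9 and nSyb ≥10, and unjoined points are the repo gate. ND-30 is at 134 to 135 CPM in dpn cells of all 3 libraries and at 62.2 to 67.0 CPM in Hey cells, whereas UQCR-6.4 differs between libraries in most gates.

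In glia over nSyb ≥10 neurons all 13 mitochondrial members rose, against 32.8% of all genes, with a median log2 fold change of 0.81. mt:CoI had 4844, 6394 and 3005 CPM in repo cells of the library labelled mud, the nanobody library and control, against 2404, 2624 and 2051 CPM in nSyb ≥10 cells (log2 fold change 0.86 ± 0.16, edgeR adjusted p = 0.000274). mt:ND3 had 281, 279 and 180 CPM in repo cells, against 114, 95.7 and 84.4 CPM in nSyb ≥10 cells (log2 fold change 1.26 ± 0.11, edgeR adjusted p = 1.13e-07). Each library was higher in its repo cells, by least in control. Without the library labelled mud 6 rose, and without the nanobody library 7 did; mt:CoI, mt:ND1, mt:ND3 and mt:ND5 were called in all 14 fits. Of the 4 genes listed as fat body markers, Lsp1beta, Fbp1 and Lsp2 were at 0 in the repo gate of every library. Only Ilp6 was above 0, at 39.9, 102 and 13.9 CPM in the library labelled mud, the nanobody library and control. Ilp6 alone does not show that fat body cells were present, and its part in the result was not tested.

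Of the nuclear members, 17 rose and 2 fell in that comparison, against 32.8% and 33.5% of all genes. ND-20, a core complex I subunit, had 202, 229 and 214 CPM in repo cells of the library labelled mud, the nanobody library and control, against 126, 120 and 131 CPM in nSyb ≥10 cells (log2 fold change 0.64 ± 0.08, edgeR adjusted p = 5.08e-06). ND-30, ND-B14.5A, ND-SGDH and ND-B14.5B followed, at 0.64, 0.61, 0.59 and 0.55, and 8 of the 17 risers, without ND-B14.5A, kept their sign in all 14 fits. The 2 that fell were ND-75, at −0.45 ± 0.11, and ND-18, an accessory subunit, at −0.38 ± 0.09. None of the nuclear risers was called in all 14 fits, and among cells of 4000 to 10000 UMIs none rose and 19 fell. Leaving out the library labelled mud gave 4 higher and 4 lower, and leaving out the nanobody library 5 higher and 8 lower.

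Between genotypes there was 1 library each, so values are given without a test, and intervals cover counting error only. In the library labelled mud the nuclear share was below control in all 6 gates, with differences from −17.7% of the control value in the Hey gate, at 1.07% there and 1.29% in control, to −6.73% in the repo gate, at 1.36% there and 1.46% in control. Among cells in exactly 1 gate the repo gate turned, at 1.44% in the library labelled mud and 1.39% in control. In the nanobody library it was below control in 5 of 6 gates, with differences of −11.6% to −1.83% of the control value, and above it in the repo gate, at 1.63% there and 1.46% in control. Barcodes of 20 to 200 UMIs, which hold mostly free RNA, had nuclear shares of 0.895% in the library labelled mud, 1.25% in the nanobody library and 1.30% in control. The free RNA thus had the same order of libraries as the cells of every gate but repo, and its part in the result was not tested.

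The mitochondrial share was above control in all 6 gates of the nanobody library, at 1.44% there and 1.28% in control for dpn cells, and by 72.0% of the control value in repo cells, at 1.85% there and 1.07% in control. For the library labelled mud it was above control in 5 of 6 gates, by 1.95% of the control value in dpn cells to 28.1% in repo cells, and differed by −0.03% in ase cells. In dpn cells the order of libraries depended on depth. Under 4000 UMIs the medians were 1.40% in the library labelled mud, 0.911% in the nanobody library and 0.947% in control. At 4000 to 8000 UMIs they were 1.35%, 1.33% and 1.52%. From 8000 to 16000 UMIs they were 1.30%, 1.46% and 1.24%, and above 16000 UMIs 1.28%, 1.67% and 1.32%. The barcodes of 20 to 200 UMIs had mitochondrial shares of 1.72% in the library labelled mud, 2.42% in the nanobody library and 2.22% in control.

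Gene by gene, log2 ratios of CPM plus 5 were taken for the 56 nuclear members with at least 50 CPM. In dpn cells of the library labelled mud over control, 1 member was past 1.5-fold higher and none lower, where 6.21% and 1.35% of all such genes were. No member was past it in the nanobody library, where 0.929% and 0.275% of all genes were. In nSyb ≥10 cells the counts were again 1 and 0 in the library labelled mud (5.65% and 1.58% of all genes) and none in the nanobody library (0.971% and 2.15%). The median log2 ratio at nSyb ≥10 was −0.21 (library labelled mud) and −0.22 (nanobody library) for nuclear members, against −0.04 and 0.00 for all genes, with 50 and 52 of 56 members below 0, as were 55.8% and 49.7% of all genes. In dpn cells it was −0.09 and −0.02, against −0.06 and 0.02. Of the 56 members, 31 were below control in all 6 gates and 2 above it in the library labelled mud, while 12 were below and 2 above in all gates of the nanobody library. Of the 2994 genes with at least 15041 UMIs, the least of these members, 31.4% were below and 17.3% above control in all gates for the library labelled mud, while for nanobody 14.6% were below and 11.1% above. Both comparisons share the control library.

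The 1 member past 1.5-fold was UQCR-6.4 (FBgn0034245, chromosome 2R, 17572096 to 17572784, minus strand, BDGP6.54). In dpn cells it had 298 CPM in the library labelled mud, 226 in the nanobody library and 155 in control, and in nSyb 1 to 9 cells 119, 83.3 and 63.5 CPM. The log2 ratio of the library labelled mud over control ran from 0.75 to 0.93 over the 6 gates, and was 0.44 in barcodes of 20 to 200 UMIs. For the nanobody library it ran from −0.03 at nSyb ≥10 to 0.54 in dpn cells. The nanobody library thus lay above control in every gate but nSyb ≥10. Among dpn cells of 4000 to 10000 UMIs no member was past 1.5-fold higher in the library labelled mud, and 5 were past it lower.

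ND-MWFE, an accessory subunit of complex I, had 182, 148 and 126 CPM in dpn cells of the library labelled mud, the nanobody library and control, with log2 ratios of 0.39 to 0.60 over 6 gates in the library labelled mud and 0.13 to 0.47 in the nanobody library. The lowest ratios in dpn cells belonged to ND-B17, with −0.45 over control for the library labelled mud, and −0.33 for nanobody. COX5B, a matrix-side subunit of complex IV, was lowest in nSyb ≥10 cells of the nanobody library, with 204 CPM there, 220 in the library labelled mud and 301 in control.

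The mitochondrial members did not shift together. mt:ATPase8, a small synthase subunit (FBgn0013673, mitochondrial genome, 3907 to 4068, plus strand, BDGP6.54), had 37.9 CPM (exact 95% Poisson interval 34.6 to 41.5) in dpn cells of the library labelled mud, 22.9 (20.1 to 26.0) in the nanobody library and 14.4 (11.7 to 17.6) in control. The log2 ratio of the library labelled mud over control was 1.00 to 1.80 over the 6 gates and 1.40 in barcodes of 20 to 200 UMIs. Its neighbour mt:ATPase6, which overlaps it by 7 bases, had log2 ratios of −0.13 to 0.42 over the same gates. mt:ND6 (FBgn0013685, 9971 to 10495) ran the other way, with 106 CPM (100 to 112) in dpn cells of the library labelled mud, 138 (131 to 145) in the nanobody library and 179 (170 to 190) in control. Its log2 ratio in the library labelled mud was below 0 in 5 of 6 gates and was −1.17 in barcodes of 20 to 200 UMIs.

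The 3 mitochondrial genes of cytochrome c oxidase, mt:CoI, mt:CoII and mt:CoIII, were above control in all 6 gates of the nanobody library, with log2 ratios of 0.33, 0.27 and 0.20 in dpn cells and 0.61, 0.54 and 0.44 in Hey cells. The library labelled mud had the same genes at 0.08, 0.09 and −0.01 in dpn cells and 0.69, 0.70 and 0.59 in repo cells, with mt:CoI and mt:CoII above control in all 6 gates and mt:CoIII in 4. For these genes the barcodes of 20 to 200 UMIs gave 0.31, 0.21 and 0.07 in the nanobody library and −0.23, −0.31 and −0.53 in the library labelled mud.

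**Figure D4:**
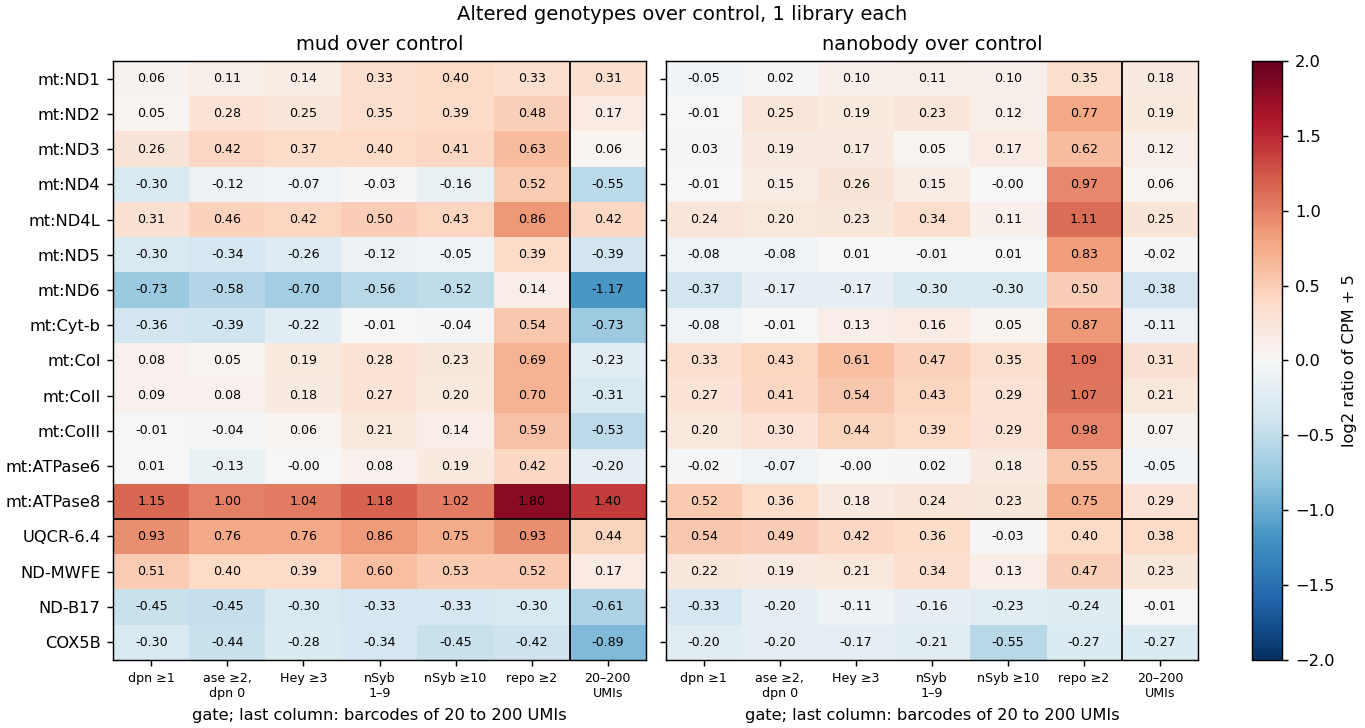
Log2 ratio of CPM plus 5 over control for the 13 mitochondrial members and 4 nuclear ones, in the library labelled mud (left) and the nanobody library (right). Columns are the 6 gates and, last, barcodes of 20 to 200 UMIs; red is higher than control and blue lower. In the library labelled mud mt:ATPase8 is at 1.00 to 1.80 and UQCR-6.4 at 0.75 to 0.93 in every gate.

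Other genes of the pathway that the symbol rule leaves out were counted in the same tests. In nSyb ≥10 cells over dpn cells, where 40.4% of all genes rose and 39.9% fell, all 12 glycolysis genes rose, with a median log2 fold change of 3.31, and 11 of 13 tricarboxylic acid cycle genes rose and 1 fell, with a median of 0.61. Citrate synthase (kdn) rose by 1.72 ± 0.15 and malate dehydrogenase (Mdh2) by 2.87 ± 0.19 on the log2 scale. Of the 4 tested subunits of complex II, the cycle's own entry to the chain, SdhA rose by 0.41 ± 0.08, SdhB fell by 0.21 ± 0.09, and SdhC and SdhD did not pass. Cytochrome c (Cyt-c-p), the carrier between complexes III and IV, rose by 1.01 ± 0.12. Of 7 tested genes of carriers and assembly factors 3 rose and 3 fell. The ADP/ATP exchanger sesB rose by 0.97 ± 0.08 and the outer membrane channel porin by 0.73 ± 0.08, while the second exchanger Ant2 fell by 0.64 ± 0.24, and Scox and Bcs1, assembly factors of complexes IV and III, fell by 0.68 ± 0.07 and 1.14 ± 0.16. The subunits blw, levy and cype, of complexes V and IV under other symbols, were added after the files were seen, and all 3 rose, by 0.36 to 0.56. For genes outside the rule, here and below, no values were taken from the alternative fits. In this comparison the median of all genes was −0.21 by library size alone and 0.17 with DESeq2. The smaller changes given here may therefore depend on the scaling.

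Most genes of mitochondrial gene expression fell in the same comparison, again beside 40.4% of all genes higher and 39.9% lower. Of 10 for mitochondrial transcription and biogenesis, 1 rose and 8 fell, with a median of −1.08. TFAM, which packages mitochondrial DNA and takes part in its transcription, fell by 1.69 ± 0.07 on the log2 scale. The polymerase PolrMT did not pass, at 0.18 ± 0.13. Of 72 tested mitochondrial ribosomal protein genes 2 rose and 62 fell, with a median of −0.57, and of 86 cytoplasmic ones 1 rose and 81 fell, with a median of −0.52. Of 9 tested stress genes 7 rose and 1 fell. In Hey cells over dpn cells, 11 of 12 glycolysis genes, all 4 tested subunits of complex II and 57 of 72 mitochondrial ribosomal protein genes fell, against 31.1% of all genes.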

How the data were processed

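The authors deposited raw UMI counts per gene and barcode, written by Cell Ranger 9.0.1 per the file headers, with every barcode kept. Cell Ranger and Seurat are named in the submitters' processing notes. The genome build, the annotation and the treatment of intronic reads are not given in the sources used here. Gene positions come from Ensembl 115 (BDGP6.54), which matched 13976 features.

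Cells, gates and members followed the rules given above. The members and the gene lists were chosen with earlier results of these data known. Doublets were not removed, except in 1 alternative. Shares were taken per cell. UMI sums of 6 gates in 3 libraries, of cells in exactly 1 gate, were fitted in edgeR 4.0.16 (R 4.3.3) with gate and library terms, TMM scaling and filterByExpr, and called at an adjusted p of 0.05. The code was tested on simulated data. The lists use current symbols for 3 older names (Ogdh, PyK, PolG1), and AOX had no match. Genotypes were compared by log2 ratio of CPM plus 5, without a test. The minimum of 50 CPM was set for the counts past 1.5-fold and for the medians over genes, not for the ratios of single mitochondrial members. In the dpn and nSyb ≥10 gates mt:ATPase8 was under it in every library. Called cells held 113014038 UMIs in the library labelled mud, 113544220 in the nanobody library and 108519041 in control. Genes named are all mitochondrial members, the 5 highest and 5 lowest called nuclear members per gate comparison and the 3 highest and 3 lowest per genotype in the dpn and nSyb ≥10 gates, plus genes said to be noticed afterwards. Alternatives covered scaling, DESeq2 1.42.0, filters, depth, doublets, gate overlap and leaving out each library.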

Additional observations from a re-analysis of the deposited data

How the results depend on the processing

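Most values that moved with the settings were counts of members called, and the cause was not tested. In nSyb ≥10 cells over dpn cells (17 nuclear members higher, 12 lower, 9 mitochondrial lower), nuclear members higher numbered 3 with library size alone, 32 with DESeq2, 11 with no replicate block (library left out of the model), 28 with all cells of a gate, 28 with a minimum of 2000 UMIs and 32 at 4000 to 10000 UMIs. Nuclear members lower numbered 29, 6, 5, 6, 6 and 1 under the same settings and 6 at an adjusted p of 0.01. Mitochondrial members lower numbered 2 with DESeq2, 3 without the block, 4 with all cells of a gate, 4 at 2000 UMIs, 3 at 4000 to 10000 UMIs and 3 at 0.01. Leaving out each library gave 4 to 12 nuclear and 1 to 6 mitochondrial members lower, and 0 to 1 mitochondrial higher. In Hey over dpn, nuclear higher was 0 without the block and at 0.01, nuclear lower was 15 at 4000 to 10000 UMIs, and mitochondrial lower was 0 without the block, 1 with all cells of a gate, and 0 at 4000 to 10000 UMIs and at 0.01. Leaving out each library gave 0 to 1 nuclear higher and 0 to 5 mitochondrial lower. In ase over dpn, nuclear higher was 1 with library size alone, 4 with DESeq2, 10 with no filter, 0 without the block, 4 with all cells, 9 at 2000 UMIs, 12 at 4000 to 10000 UMIs and 1 at 0.01. Nuclear lower there was 25 with library size alone, 4 with no filter, 6 without the block, 5 at 2000 UMIs, 2 at 4000 to 10000 UMIs, 5 at 0.01 and 3 to 5 with each library left out. Mitochondrial lower was 4 with library size alone, 2 with DESeq2, with a 10% limit and with doublets removed, and 0 with no filter, without the block, at 4000 to 10000 UMIs, at 0.01 and with each library left out, when mitochondrial higher was 0 to 1. In repo over nSyb ≥10, nuclear higher was 32 with library size alone, 8 with no filter, 10 at 2000 UMIs, 0 at 4000 to 10000 UMIs, 11 at 0.01 and 4 to 15 with each library left out. Nuclear lower was 5 with DESeq2, 5 with no filter, 8 with all cells, 7 at 2000 UMIs, 4 with doublets removed, 19 at 4000 to 10000 UMIs and 3 to 8 with each library left out, and mitochondrial higher was 6 to 13.

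The log2 share ratio of nSyb ≥10 over dpn was 0.00062 (nuclear) at 4000 to 10000 UMIs, and −0.23 (nuclear) and −0.71 (mitochondrial) without ribosomal protein UMIs. Among cells in exactly 1 gate the nuclear share was above control in 1 gate of the library labelled mud. At 4000 to 10000 UMIs the members past 1.5-fold in dpn cells were 0 higher and 5 lower in the library labelled mud and 2 lower in the nanobody library, and in nSyb ≥10 cells 2 higher in the library labelled mud and 2 lower in the nanobody library. Of the values recomputed for these comparisons 91 moved and 262 did not. Single members called could change sign, as 1 of 17 higher and 4 of 12 lower nuclear members and 2 of 9 lower mitochondrial ones did in nSyb ≥10 over dpn, 5 of 40 lower in Hey over dpn, 3 of 11 lower in ase over dpn and 9 of 17 higher in repo over nSyb ≥10. With 1 library per genotype, differences between genotypes cannot be told apart from differences between libraries, and with 59 to 107 glia per library the repo values have the least depth.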
